A study of Mus musculus with 13 samples.

Results

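Cholesterol and fatty acid synthesis genes were followed across 6 genotypes of mouse intestine. The list held 36 genes, of which 35 were measured and tested, among 16721 genes tested in all. The list was drawn up with earlier results of these data known, so that its shares beside those of all genes are descriptions only. Genes were matched by symbol: probe sets annotated to exactly 1 member symbol were taken. Where a gene had several, the one of highest mean on the 12 replicate 1 and 2 arrays stood for it. Acat2, whose product makes acetoacetyl-CoA, was not analysed here. Total RNA of enterocytes, the lining cells of the gut, was measured on Affymetrix arrays as log2 intensities, so that a difference of 1 is a 2-fold difference.

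CKIα (CKIalpha in the labels), casein kinase Iα, starts the breakdown of β-catenin and so restrains Wnt signalling. The mice had a gut-specific knockout of its gene and were crossed with mice lacking the tumour suppressor p53 or its target p21, which halts the cell cycle. The 6 groups had 2 arrays each: CKIα KO, CKIα Het, CKIα KO/p21 KO, CKIα Het/p21 KO, CKIα KO/p53 KO and CKIα Het/p53 KO. All groups had the 129/SVJ background and carried at least 1 knocked-out CKIα allele, so that none is wild type. The driver of the gut knockout and the age of the mice are not given in the sources used here. A remaining array is titled CKIα KO/p53 KO (3) while its genotype label reads CKI KO. Its levels of 3 p53 targets lay within the range of the CKIα KO arrays and above the CKIα KO/p53 KO arrays. It entered no comparison. Below, the CKIα effect without p53 is CKIα KO/p53 KO against CKIα Het/p53 KO, that without p21 is CKIα KO/p21 KO against CKIα Het/p21 KO, and that with both genes present is CKIα KO against CKIα Het. Replicates are biological by the labels, and their spread, pooled over all groups, is the basis of each p-value.

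Cells make cholesterol and fatty acids from acetyl-CoA. The mevalonate pathway builds the isoprenoid units that are joined to squalene, and further enzymes close the sterol rings and trim them to cholesterol. Acetyl-CoA carboxylase and fatty acid synthase make saturated fatty acids, which desaturases, elongases and acyltransferases modify and attach to lipids. Both routes are known targets of the SREBP transcription factors, the products of Srebf1 and Srebf2. These factors are held in the endoplasmic reticulum by Scap and the Insig proteins when sterols are plentiful, and move to the Golgi for cleavage when sterols fall. The intestine takes up cholesterol from food and also makes it.

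The sequences of a few promoters are shown because most members differed in the same direction and because SREBP factors, together with the CCAAT-binding factor NF-Y, are known to act close to the start of such genes. RefSeq promoter windows (build GRCm38.p6) were available for 29 of the 35 members. The 250 bases before each start were searched on both strands for an SRE-type motif (TCACNCCAC), for CCAAT and for the E-box CACGTG, none of which is part of another. CCAAT stood in 23 windows, or 79.3%, against 38.8% of the windows of 13169 tested genes. CACGTG stood in 6, or 20.7%, against 8.94%. The SRE-type motif stood in 1, or 3.45%, against 1.26%, and that window was the one of Hmgcs1. A match is a description of the letters in this window only. Below, matches are in capitals, and ATTGG is CCAAT on the other strand. Hmgcs1 is shown for its SRE-type motif, Lss and Insig1 as a cyclase and a regulator that changed, Fasn for fatty acid synthase, and Mboat1 as the member with the largest change.
Hmgcs1, chr13:119690101-119690350, plus strand: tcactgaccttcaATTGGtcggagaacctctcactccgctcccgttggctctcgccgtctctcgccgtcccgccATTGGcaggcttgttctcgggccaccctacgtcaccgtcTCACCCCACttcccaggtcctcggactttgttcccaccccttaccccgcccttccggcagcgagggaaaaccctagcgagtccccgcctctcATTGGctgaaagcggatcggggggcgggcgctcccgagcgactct
Lss, chr10:76531355-76531604, plus strand: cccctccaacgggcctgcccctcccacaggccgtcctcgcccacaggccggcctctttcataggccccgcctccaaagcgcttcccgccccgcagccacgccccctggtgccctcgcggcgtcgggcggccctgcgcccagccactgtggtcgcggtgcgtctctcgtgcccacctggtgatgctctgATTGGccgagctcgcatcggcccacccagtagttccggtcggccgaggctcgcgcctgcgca
Insig1, chr5:28071162-28071411, plus strand: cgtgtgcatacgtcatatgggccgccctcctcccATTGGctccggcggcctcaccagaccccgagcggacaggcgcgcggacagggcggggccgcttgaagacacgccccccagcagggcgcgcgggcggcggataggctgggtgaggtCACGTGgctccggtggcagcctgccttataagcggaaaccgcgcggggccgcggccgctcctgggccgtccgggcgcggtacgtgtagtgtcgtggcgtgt
Fasn, chr11:120824548-120824797, minus strand: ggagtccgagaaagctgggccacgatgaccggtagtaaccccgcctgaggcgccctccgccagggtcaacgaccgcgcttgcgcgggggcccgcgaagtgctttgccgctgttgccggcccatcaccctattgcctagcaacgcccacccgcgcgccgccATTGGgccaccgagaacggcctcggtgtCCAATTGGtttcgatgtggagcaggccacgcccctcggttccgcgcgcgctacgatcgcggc
Mboat1, chr13:30136240-30136489, plus strand: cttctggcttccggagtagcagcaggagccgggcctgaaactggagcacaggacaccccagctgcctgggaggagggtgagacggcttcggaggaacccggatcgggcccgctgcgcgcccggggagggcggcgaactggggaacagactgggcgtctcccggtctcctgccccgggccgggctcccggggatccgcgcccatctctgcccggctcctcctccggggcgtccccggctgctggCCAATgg

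In CKIα KO/p53 KO enterocytes most genes of both routes were higher than in CKIα Het/p53 KO. Of the 35 members, 23 were higher and 0 lower at an adjusted p under 0.05 (limma, Benjamini-Hochberg over all tested genes), where 17.8% of all genes were called in either direction, 11.0% as higher and 6.82% as lower. The median log2 fold change was 0.88 over the members and -0.06 over all genes. The called members included 5 of 6 mevalonate enzymes, 6 of 11 enzymes between squalene and cholesterol, 3 of 6 SREBP regulators and sterol carriers, 3 of 5 genes of acetyl-CoA, NADPH and fatty acid synthesis, and 6 of 7 desaturases, elongases and acyltransferases. This count and that over all genes both depended on single arrays of the groups compared. It was 12 without CKIα KO/p53 KO replicate 1 (7.86% of all genes called) and 3 without its replicate 2 (1.49%). It was 0 without CKIα Het/p53 KO replicate 1 (0.120% of all genes), and 8 without its replicate 2, 7 of them higher (3.93%).

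With p53 and p21 present, 0 members passed limma's adjusted threshold in CKIα KO against CKIα Het, where 0.0239% of all genes were called. At an unadjusted p under 0.05 there were 16 members, or 45.7%, against 9.09% of all genes. The members nevertheless lay mostly on one side, with 32 of 35 above 0 (91.4%, against 53.8% of all genes) and a median of 0.45, against 0.02 over all genes. Without CKIα KO replicate 1 the count was 1 (0.384% of all genes called), and without either CKIα KO/p21 KO array it was 5 (0.503%). In CKIα KO/p21 KO against CKIα Het/p21 KO, 2 members were higher, Scd2 and Mboat1, where 1.97% of all genes were called, 1.46% as higher and 0.514% as lower. Here 31 of 35 lay above 0 (88.6%, against 48.9% of all genes), with a median of 0.67 against -0.01 over all genes. That count of 2 was 20 without CKIα KO/p21 KO replicate 1, where 16.6% of all genes were called. It was 0 without replicate 2 of that group, or without any one of the arrays of CKIα Het, CKIα Het/p21 KO, CKIα KO/p53 KO and CKIα Het/p53 KO. In those fits 0% to 0.222% of all genes were called.

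The mean of the 3 CKIα effects used all 12 arrays. By it 25 members were higher and 1, Stard4, was lower, where 24.4% of all genes were called, 15.5% as higher and 8.96% as lower. The median was 0.67 over the members and -0.03 over all genes. Of these 26 calls, 22 held under every alternative tried, including each array left out. The other 4 were Msmo1 and Scd1, which kept the call in 4 of 12 fits with an array left out, Acss2 in 5 and Stard4 in 8. The groups of single backgrounds were also compared by whether their arrays overlapped. In CKIα KO/p53 KO 27 members lay above and 1 below both CKIα Het/p53 KO arrays, where 28.9% of all genes lay above and 35.7% below. In CKIα KO/p21 KO 25 lay above and 2 below both CKIα Het/p21 KO arrays (26.9% and 24.3% of all genes). In CKIα KO 25 lay above and 3 below both CKIα Het arrays (22.3% and 16.8%). On all 6 CKIα KO arrays together, 14 members lay above all 6 CKIα Het arrays and 0 below, where 3.74% of all genes lay above and 1.96% below. These 14 were Mvd, Idi1, Fdps, Sqle, Lss, Nsdhl, Srebf2, Scap, Acly, Acaca, Fasn, Scd2, Elovl6 and Mboat1.

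**Figure D1:**
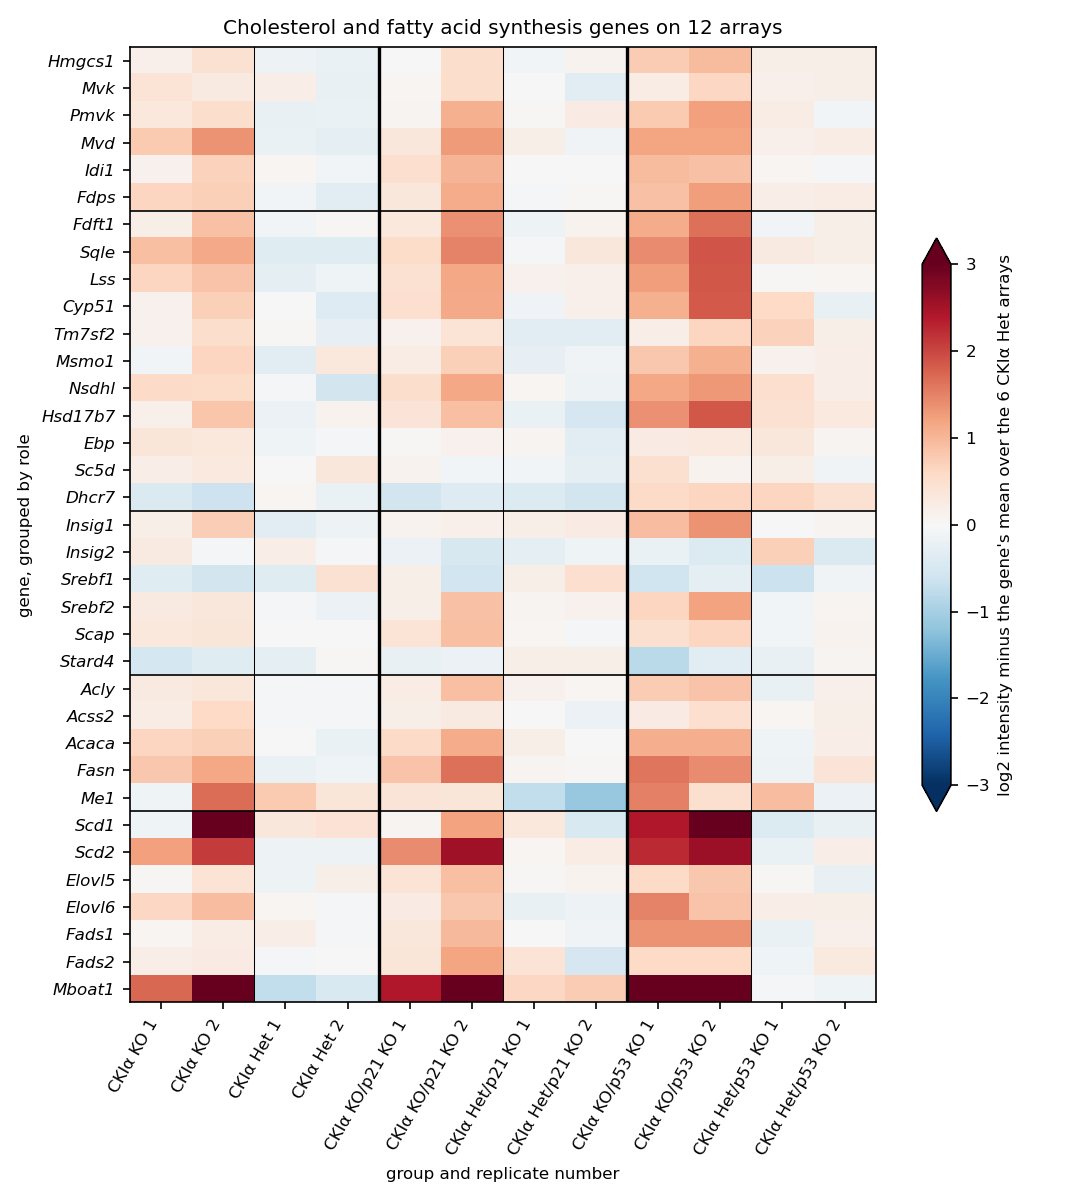
Log2 intensity of the 35 members on each of the 12 arrays, minus the gene's mean over the 6 CKIα Het arrays. Columns are arrays by group and replicate number, thick lines part the backgrounds, and rows are genes in order of their role. The 2 CKIα KO/p53 KO columns are red for most rows, while Srebf1, Insig2 and Stard4 are not.

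In the mevalonate pathway, Mvd, which makes isopentenyl diphosphate, had log2 values of 7.90 and 7.91 in CKIα KO/p53 KO and 6.88 and 6.95 in CKIα Het/p53 KO. In CKIα KO/p21 KO it was at 7.07 and 8.01, against 6.91 and 6.63 in CKIα Het/p21 KO. In CKIα KO it was at 7.51 and 8.07, against 6.53 and 6.45 in CKIα Het. Every CKIα KO array thus lay above every CKIα Het array. The log2 fold change was 0.99 ± 0.28 without p53 (SE of the fit, n = 2 per group; adjusted p = 0.0371 by limma). Fdps, which makes farnesyl diphosphate, had 8.91 and 9.30 in CKIα KO/p53 KO and 8.24 and 8.27 in CKIα Het/p53 KO, a log2 fold change of 0.85 ± 0.24 (adjusted p = 0.0363, limma). Idi1, the isomerase before it, changed by 0.91 ± 0.21 on the log2 scale without p53, and Hmgcs1, the HMG-CoA synthase, by 0.68 ± 0.18. Pmvk, a kinase, changed by 0.95 ± 0.28, a call that held in 2 of 12 fits with an array left out and 4 of 6 others. The exception was Mvk, mevalonate kinase, at 0.24 ± 0.21 without p53 (adjusted p = 0.448, limma). With p53 and p21 present the log2 differences of these 6 genes ran from 0.35 to 1.30, all above 0 and none passing.

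Among the enzymes between squalene and cholesterol, Sqle, squalene epoxidase, had log2 values of 9.44 and 9.91 in CKIα KO/p53 KO, against 8.30 and 8.21 in CKIα Het/p53 KO. It had 8.57 and 9.52 in CKIα KO/p21 KO, against 7.99 and 8.35 in CKIα Het/p21 KO. It had 8.93 and 9.17 in CKIα KO, against 7.65 and 7.66 in CKIα Het. The lowest CKIα KO array was above the highest CKIα Het array, and the difference without p53 was 2.69-fold (log2 1.43 ± 0.28, adjusted p = 0.0124, limma). Lss, the cyclase that forms lanosterol, had 7.75 and 8.35 in CKIα KO/p53 KO and 6.52 and 6.55 in CKIα Het/p53 KO. With its difference of 2.85-fold (log2 1.51 ± 0.24, adjusted p = 0.00789, limma) it had the smallest p of these 11 enzymes.

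Fdft1, squalene synthase, was 2.54-fold higher without p53, Cyp51, the lanosterol demethylase, 2.42-fold, Hsd17b7, a sterol ketoreductase, 2.37-fold, and Nsdhl, a sterol dehydrogenase, 1.84-fold. Fdft1 was at 9.80 and 10.33 in CKIα KO/p53 KO, against 8.59 and 8.85 in CKIα Het/p53 KO. Msmo1, the sterol methyl oxidase, was called in the mean effect (log2 0.56 ± 0.16, adjusted p = 0.0302, limma) but not without p53 (0.77 ± 0.28, adjusted p = 0.0812, limma). The remaining enzymes of this group passed in none of the CKIα comparisons. Tm7sf2, a sterol reductase, was at -0.01 ± 0.23 without p53 on the log2 scale, Ebp, a sterol isomerase, at 0.06 ± 0.16, Sc5d, a sterol desaturase, at 0.27 ± 0.19 and Dhcr7, the reductase of the last step of one branch, at 0.07 ± 0.15.

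Dhcr7 had a pattern of its own among the members. Its log2 values were 8.90 and 8.97 in CKIα KO/p53 KO and 8.96 and 8.78 in CKIα Het/p53 KO. They were 7.77 and 7.94 in CKIα KO/p21 KO and 7.92 and 7.77 in CKIα Het/p21 KO, and 7.90 and 7.71 in CKIα KO, against 8.38 and 8.13 in CKIα Het. The 4 arrays with p53 knocked out thus lay above the other 8 arrays, which held for no other member and for 0.472% of all genes. No member lay below all 8, where 0.443% of all genes did. This grouping of arrays was chosen after the values of Dhcr7 were seen. In CKIα KO/p53 KO Dhcr7 was 2.19-fold higher than in CKIα KO (log2 1.13 ± 0.15, adjusted p = 0.0202, limma), and 2.12-fold higher than in CKIα KO/p21 KO (log2 1.08 ± 0.15, adjusted p = 0.0208, limma). In CKIα Het/p53 KO against CKIα Het the difference was 0.61 ± 0.15 (adjusted p = 0.788, limma) and did not pass.

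**Figure D2:**
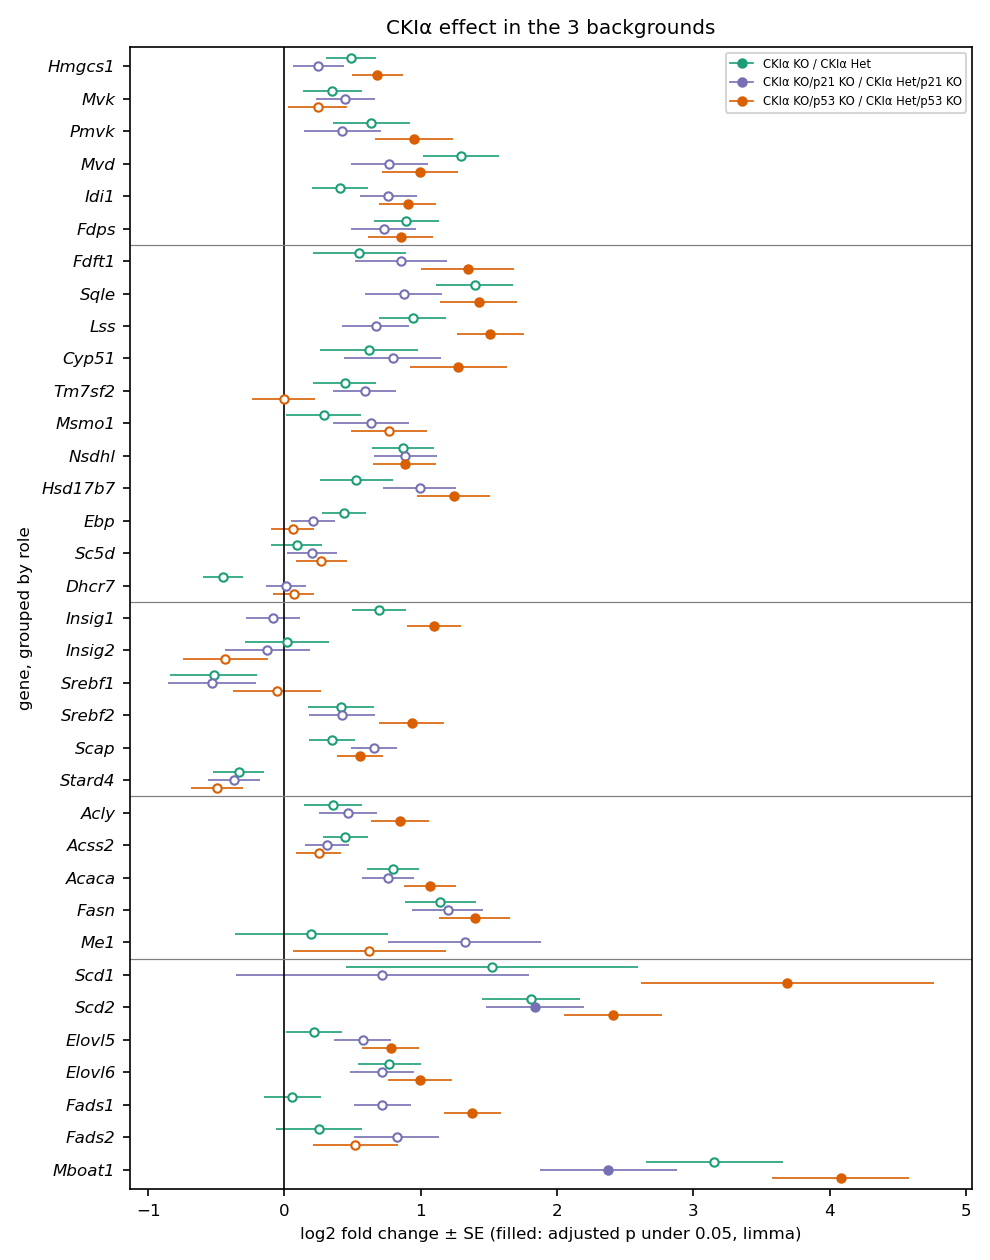
Log2 fold change of each member with its SE from the fit (n = 2 arrays per group), CKIα KO over CKIα Het, in the 3 backgrounds. Filled points passed an adjusted p of 0.05. Most points lie right of 0, with Mboat1 farthest at 4.08 without p53, and Stard4 and Srebf1 lie left of it in all 3.

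The regulators did not move as 1 group. Insig1, which retains Scap in the endoplasmic reticulum and is itself an SREBP target, had log2 values of 10.51 and 10.91 in CKIα KO/p53 KO, against 9.57 and 9.65 in CKIα Het/p53 KO. It had 9.67 and 9.72 in CKIα KO/p21 KO, against 9.75 and 9.81 in CKIα Het/p21 KO, and 9.74 and 10.30 in CKIα KO, against 9.23 and 9.42 in CKIα Het. It was 2.14-fold higher without p53 (log2 1.10 ± 0.20, adjusted p = 0.0100, limma), while both CKIα KO/p21 KO arrays lay just below both of their CKIα Het/p21 KO counterparts. The CKIα effect without p21 minus that with both genes present was -0.78 ± 0.28 and did not pass (adjusted p = 0.615, limma). Srebf2, the SREBP gene of the cholesterol route, was at 9.00 and 9.58 in CKIα KO/p53 KO, against 8.27 and 8.44 in CKIα Het/p53 KO, a log2 fold change of 0.93 ± 0.24 (adjusted p = 0.0285, limma). Scap, the escort protein, changed by 0.56 ± 0.17 (adjusted p = 0.0487, limma), a call that held in 2 of 12 fits with an array left out and 4 of 6 others.

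Srebf1, the SREBP gene best known for the fatty acid route, did not pass in any of the 11 comparisons, and its log2 differences were -0.05 ± 0.32 without p53, -0.53 ± 0.32 without p21 and -0.52 ± 0.32 with both genes present. Its values spread widely between replicates, with 8.21 and 9.03 in CKIα Het. Insig2, the other Insig gene, was at -0.43 ± 0.31 without p53 and did not pass. Stard4, a carrier of cholesterol between membranes, had log2 values of 9.22 and 9.71 in CKIα KO/p53 KO, against 9.82 and 10.11 in CKIα Het/p53 KO. It had 9.81 and 9.86 in CKIα KO/p21 KO, against 10.20 and 10.21 in CKIα Het/p21 KO, and 9.50 and 9.67 in CKIα KO, against 9.77 and 10.07 in CKIα Het. The CKIα KO arrays lay below the CKIα Het arrays in each background. Stard4 was the only member lower in the mean effect, by a log2 of -0.40 ± 0.11 (adjusted p = 0.0248, limma). That call was lost without CKIα KO/p53 KO replicate 1 (-0.32), CKIα Het/p21 KO replicate 2 (-0.40), CKIα Het replicate 2 (-0.35) or CKIα Het/p53 KO replicate 2 (-0.35).

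In the fatty acid route, Fasn, fatty acid synthase, had log2 values of 8.82 and 8.62 in CKIα KO/p53 KO, against 7.05 and 7.60 in CKIα Het/p53 KO. It had 8.07 and 8.86 in CKIα KO/p21 KO, against 7.29 and 7.25 in CKIα Het/p21 KO, and 8.02 and 8.37 in CKIα KO, against 7.005 and 7.097 in CKIα Het. No CKIα KO array overlapped a CKIα Het array. The difference was 2.63-fold without p53 (log2 1.39 ± 0.26, adjusted p = 0.0108, limma), and without p21 it missed the threshold narrowly (1.20 ± 0.26, adjusted p = 0.0504, limma). Acaca, the acetyl-CoA carboxylase that supplies malonyl-CoA, was 2.10-fold higher without p53 (log2 1.07 ± 0.19, adjusted p = 0.00992, limma), and Acly, which makes acetyl-CoA from citrate, 1.80-fold higher. Acss2, which makes acetyl-CoA from acetate, was called in the mean effect only (log2 0.34 ± 0.09, adjusted p = 0.0283, limma). Me1, the malic enzyme that yields NADPH, did not pass and varied most between replicates of this group, with 8.31 and 10.11 in CKIα KO.

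Among the desaturases, elongases and acyltransferases were the 3 members with the largest differences without p53, Mboat1, Scd1 and Scd2. By the median of its genes this group was the highest of the 5 without p53 (1.38) and with both genes present (0.77). In the mean effect it was at 0.83, below the enzymes between squalene and cholesterol (0.88), and without p21 at 0.72, below the genes of acetyl-CoA, NADPH and fatty acid synthesis (0.76). Mboat1, an acyltransferase of lysophospholipids, had log2 values of 10.46 and 10.03 in CKIα KO/p53 KO and 6.21 and 6.13 in CKIα Het/p53 KO. In CKIα KO/p21 KO it was at 8.66 and 9.98, against 6.88 and 7.01 in CKIα Het/p21 KO, and in CKIα KO at 7.99 and 9.63, against 5.53 and 5.79 in CKIα Het. The groups did not overlap in any background. The mean effect was 9.20-fold (log2 3.20 ± 0.29, adjusted p = 0.00119, limma), and the effects of the single backgrounds were 4.08 ± 0.50 without p53, 2.37 ± 0.50 without p21 (adjusted p = 0.0485, limma) and 3.15 ± 0.50 with both genes present (adjusted p = 0.0972, limma). The call of Mboat1 without p21 held in 3 of 12 fits with an array left out and 3 of 6 others. The large change of Mboat1 and of Scd1 without p53 was known when the list was drawn up. Scd2, a stearoyl-CoA desaturase that makes monounsaturated fatty acids, had 10.37 and 10.70 in CKIα KO/p53 KO, against 7.93 and 8.32 in CKIα Het/p53 KO. It had 9.53 and 10.67 in CKIα KO/p21 KO, against 8.17 and 8.35 in CKIα Het/p21 KO, and 9.36 and 10.21 in CKIα KO, against 7.98 on both CKIα Het arrays. All 6 CKIα KO arrays were above all CKIα Het arrays, and the mean effect was 4.05-fold (log2 2.02 ± 0.21, adjusted p = 0.00157, limma).

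Scd1, the other stearoyl-CoA desaturase, was uneven between replicates. Its log2 values were 7.11 and 9.07 in CKIα KO/p53 KO, against 4.31 and 4.49 in CKIα Het/p53 KO, and 4.80 and 5.93 in CKIα KO/p21 KO, against 5.04 and 4.26 in CKIα Het/p21 KO. In CKIα KO it was at 4.60 and 8.67, against 5.06 and 5.16 in CKIα Het, so that 1 array was below and 1 far above the CKIα Het arrays. The measured difference without p53 had a wide error (log2 3.69 ± 1.07, adjusted p = 0.0420, limma). Both CKIα Het/p53 KO values lay below the array medians of 4.96 to 5.12, and no detection calls were used here, so that a level above background is not shown there and no fold is given. Fads1, a desaturase of polyunsaturated fatty acids, had 7.67 on both CKIα KO/p53 KO arrays, against 6.12 and 6.46 in CKIα Het/p53 KO. It was at 6.37 and 6.55 in CKIα KO, against 6.51 and 6.29 in CKIα Het, and those groups overlapped. Fads1 was 2.60-fold higher in CKIα KO/p53 KO than in CKIα Het/p53 KO (log2 1.38 ± 0.21, adjusted p = 0.00763, limma), and 2.32-fold higher than in CKIα KO (log2 1.21 ± 0.21, adjusted p = 0.0458, limma). The call against CKIα KO held in 2 of 12 fits with an array left out and 5 of 6 others.

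Fads2, which lies next to Fads1 in the genome and opens the same desaturation route, did not pass without p53 (log2 0.52 ± 0.31, adjusted p = 0.267, limma), with values of 9.04 on both CKIα KO/p53 KO arrays, against 8.30 and 8.74 in CKIα Het/p53 KO. The elongase Elovl6, which extends saturated fatty acids, was 1.99-fold higher without p53 (log2 0.99 ± 0.23, adjusted p = 0.0208, limma). The elongase Elovl5, which extends polyunsaturated ones, was 1.72-fold higher (log2 0.78 ± 0.21, adjusted p = 0.0311, limma).

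**Figure D3:**
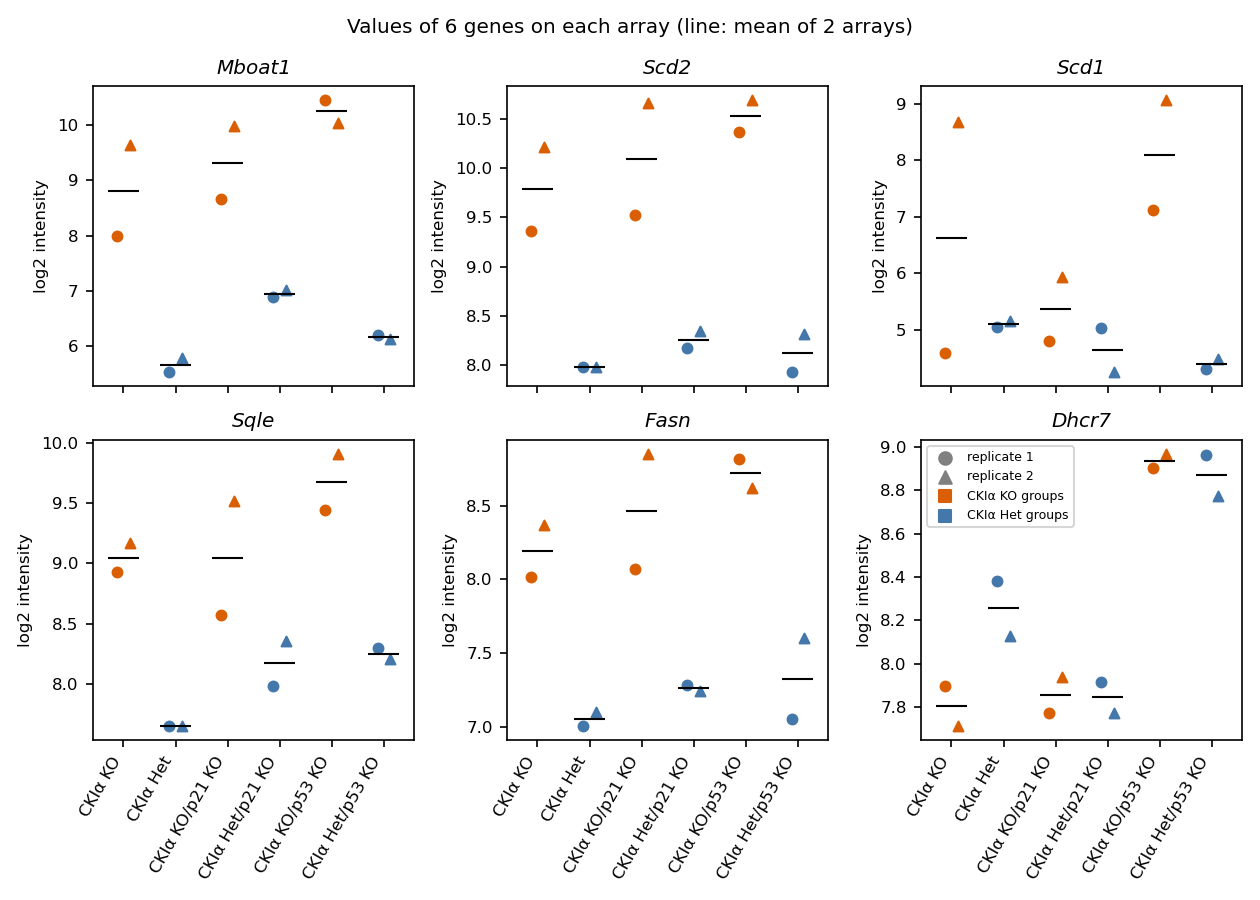
Log2 intensity of 6 members on each array by group. Circles are replicate 1, triangles replicate 2, and a line marks the mean of the 2 arrays. For Mboat1, Scd2, Sqle and Fasn all orange CKIα KO points lie above all blue CKIα Het points, for Scd1 they overlap, and for Dhcr7 the p53 KO groups lie above the others.

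Loss of p53 in CKIα KO raised 2 members, Dhcr7 and Fads1, where 0.694% of all genes were called, 0.466% as higher. By unadjusted p 15 members, or 42.9%, were under 0.05, against 22.3% of all genes. Of the 35, 31 lay above 0 (88.6%, against 45.8% of all genes), and the median was 0.52, against -0.03 over all genes. The count of called members was 0 without CKIα KO replicate 1 (0.0420% of all genes called) or CKIα KO/p53 KO replicate 2 (0.0600%). It was 4 without either CKIα KO/p21 KO array, where 8.67% of all genes were called, a share close to that of the members. It was 1 without either array of CKIα Het, CKIα Het/p21 KO or CKIα Het/p53 KO (0.120% to 0.150% of all genes), or without CKIα KO/p53 KO replicate 1 (0.708%). CKIα KO/p53 KO against CKIα KO/p21 KO gave 1 member, Dhcr7 (0.329% of all genes). That count was 2 without either CKIα KO array or CKIα KO/p21 KO replicate 2, and 0 without either CKIα KO/p53 KO array or CKIα KO/p21 KO replicate 1, with 0.108% to 1.32% of all genes called over all arrays left out. In CKIα KO/p53 KO against CKIα KO/p21 KO, 31 of 35 lay above 0 (88.6%, against 52.0% of all genes), with a median of 0.39, against 0.01. Loss of p21 in CKIα KO gave 0 members by limma (0.0359% of all genes), and 1 at an unadjusted p under 0.05 (against 2005 of 16721 genes). For this loss 22 of 35 lay above 0 (62.9%, against 43.6% of all genes), with a median of 0.15, against -0.04 over all genes. The adjusted count was 1 without CKIα KO/p21 KO replicate 1, where 6.87% of all genes were called.

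In CKIα Het, loss of p53 gave 0 members by limma (0% of all genes), and 3 at an unadjusted p under 0.05 (8.57%, against 5.63% of all genes). Here 29 of 35 lay above 0 (82.9%, against 56.6% of all genes), with a median of 0.18, against 0.03 over all genes. Loss of p21 gave 0 (0.00598% of all genes), and 4 unadjusted (11.4%, against 5.01%). The CKIα effect itself was also compared between backgrounds. Without p53 minus with both genes present, 0 members differed by limma (0.0179% of all genes), and 2 at an unadjusted p under 0.05 (5.71%, against 14.9% of all genes). Of the 35, 27 lay above 0 (77.1%, against 43.5% of all genes), and the median was 0.31, against -0.06 over all genes. The adjusted count was 1 without either CKIα KO/p21 KO array (1.46% of all genes). The smallest p was that of Fads1, at 1.32 ± 0.29 on the log2 scale (95% interval 0.67 to 1.97, adjusted p = 0.191, limma). Without p21 minus with both present, 0 members differed by limma (0% of all genes), and 2 unadjusted (5.71%, against 8.13%). Of the 35, 19 lay above 0 (54.3%, against 48.5% of all genes), and the median was 0.02, against -0.01 over all genes. The larger number of calls without p53 is therefore not shown to be a larger effect on any single member, and an equal effect is not shown either. The shared direction of the members in these differences was not tested.

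Other genes of sterol handling moved both ways. Of 10 other sterol genes tested, of a list of 18, 1 was higher and 3 lower in CKIα KO/p53 KO against CKIα Het/p53 KO. Over all genes 11.0% were called higher and 6.82% lower, so that the 1 higher is near that share. Nr1h3, the sterol-sensing nuclear receptor LXRα, had log2 values of 6.63 and 6.41 in CKIα KO/p53 KO, against 8.66 and 8.45 in CKIα Het/p53 KO, a difference of -2.04 ± 0.40 (adjusted p = 0.0120, limma). Mylip, a ubiquitin ligase, differed by -1.16 ± 0.32, and Npc1l1, the transporter of dietary cholesterol, by -1.22 ± 0.31. Tmem97, a sterol-regulated membrane protein, was higher by 0.74 ± 0.22 (adjusted p = 0.0473, limma). The list had a median of -0.06, like that of all genes.

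Of 21 other fatty acid and glycerolipid genes tested, of a list of 23, 7 were higher and 1 lower without p53, with a median of 0.35. Over all genes 11.0% were higher and 6.82% lower. Mboat2, a second lysophospholipid acyltransferase, was at 5.65 and 6.11 in CKIα KO/p53 KO, against 3.94 and 3.44 in CKIα Het/p53 KO (log2 2.19 ± 0.36, adjusted p = 0.00803, limma). The CKIα Het/p53 KO values were near the 25th percentiles of the arrays (3.59 to 3.73), so that a level above background is not shown there and the size of this difference is uncertain. Hacd2, a dehydratase of the elongation cycle, was higher by 0.75 ± 0.14, Gpam, which starts glycerolipid synthesis, by 1.02 ± 0.23, and Aacs, which feeds acetoacetate into lipid synthesis, by 0.95 ± 0.20. The gene that was lower, Dgat1, which makes triglycerides, is named after its values were seen and differed by -1.14 ± 0.26 (adjusted p = 0.0207, limma). In the mean effect 2 of the other sterol genes were higher and 3 lower, and 10 of the other fatty acid genes were higher and 1 lower. Over all genes 15.5% were higher and 8.96% lower by it. In that effect Hsd17b12, a reductase of the elongation cycle, was higher by 0.61 ± 0.09, and Lpin1, a phosphatidate phosphatase, by 1.01 ± 0.17.

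Markers of proliferating and of absorptive cells moved with the members in part. In such bulk samples fewer cells of a type and less RNA per cell cannot be told apart. Without p53 all 11 tested markers of proliferating cells were higher, where 11.0% of all genes were called higher. Their mean log2 level was 8.59 to 8.71 in CKIα KO/p53 KO, against 7.31 to 7.60 in CKIα Het/p53 KO. Without p21 3 of 11 were higher (1.46% of all genes), at 8.22 to 9.12 in CKIα KO/p21 KO, against 7.38 to 7.75 in CKIα Het/p21 KO. With both genes present 0 of 11 passed by limma (0.0239% of all genes), and 0 at an unadjusted p under 0.05 (9.09% of all genes). Here the markers were at 7.40 to 7.58 in CKIα KO, against 7.36 to 7.63 in CKIα Het. The members' mean level was 8.26 to 8.71 in CKIα KO, against 7.88 on both CKIα Het arrays. Of 11 markers of absorptive enterocytes, 4 were lower without p53, where 6.82% of all genes were called lower. The mean of the 11 was 11.53 to 11.84 in CKIα KO/p53 KO, against 12.69 to 12.71 in CKIα Het/p53 KO. Without p21 this mean was 12.56 and 11.52 on CKIα KO/p21 KO replicates 1 and 2, against 12.48 to 12.62 in CKIα Het/p21 KO. With both genes present it was 12.30 to 12.43 in CKIα KO, against 12.52 to 12.69 in CKIα Het. These list means lay far above the array medians of 4.96 to 5.12. Among the 11, Lct differed most without p53, at 8.47 and 6.84 in CKIα KO/p53 KO, against 12.27 and 12.17 in CKIα Het/p53 KO. The part of both marker lists in the differences of the members was not tested.

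Markers of other cell types were as follows. Over all genes 11.0% were called higher and 6.82% lower without p53, 1.46% and 0.514% without p21, and 0.0239% and 0% with both genes present. Of 7 adipocyte markers 3 were tested. Adipoq, Lep and Fabp4, the defining ones, were below the filter on dim genes, and the mean of the tested 3 was 5.39 to 5.46 in CKIα KO/p53 KO, against 5.82 to 5.92 in CKIα Het/p53 KO. Goblet cell markers were lower in CKIα KO/p53 KO (9.62 to 10.14) than in CKIα Het/p53 KO (11.14 to 11.16), with 4 of 5 called. Enteroendocrine markers were at 5.76 to 5.78 in CKIα KO/p53 KO, against 7.33 to 7.48 in CKIα Het/p53 KO, with 5 of 6 called lower. Without p21 goblet markers were at 10.17 to 10.91 in CKIα KO/p21 KO, against 11.65 to 11.66 in CKIα Het/p21 KO, with 1 of 5 called lower, and enteroendocrine markers at 5.35 to 6.42, against 7.41 to 7.42, with 3 of 6 called lower. Of 4 Paneth cell markers 1, Mmp7, was higher without p53 (log2 2.73 ± 0.54), and the 4 averaged 9.78 to 9.81 in CKIα KO/p53 KO, against 8.99 to 9.02 in CKIα Het/p53 KO. Of the rest, Lyz1 was at 13.01 and 13.08, against 12.48 and 12.64, and Defa24 at 9.13 and 9.16, against 9.195 and 9.28. Ang4 overlapped between these groups. Of 4 tuft cell markers 1, Avil, was higher (2.40 ± 0.40), and the 4 averaged 5.11 on both CKIα KO/p53 KO arrays, against 4.64 to 4.73 in CKIα Het/p53 KO. Only Avil lay above both CKIα Het/p53 KO arrays. Dclk1 was at 3.94 and 3.69, against 4.39 and 4.08, and Pou2f3 at 4.04 and 4.16, against 4.52 and 4.50. Trpm5 overlapped between these groups. The values of Dclk1, Pou2f3 and Trpm5 in both groups lay below the array medians of 4.96 to 5.12. Of 6 myeloid markers 2, Cd68 and Cd14, were higher, with a list mean of 5.41 to 5.51 in CKIα KO/p53 KO, against 5.18 to 5.21 in CKIα Het/p53 KO. Of the rest, Lyz2 was at 7.76 and 7.96, against 7.43 and 7.59, and Csf1r at 4.02 and 4.03, against 4.23 and 4.29. Itgam and Adgre1 overlapped between these groups. The values of Csf1r and Adgre1 in both groups lay below the array medians. Of 4 endothelial markers 1, Eng, was lower, with a list mean of 4.25 to 4.48 in CKIα KO/p53 KO, against 4.26 to 4.37 in CKIα Het/p53 KO. Kdr also lay below both CKIα Het/p53 KO arrays, Cdh5 lay above them (4.21 and 5.64, against 3.96 and 3.93), and Pecam1 overlapped. These list means and the Eng and Kdr values lay below the array medians of 4.96 to 5.12, so that a level above background is not shown there. Of 7 tested fibroblast and smooth muscle markers 0 passed limma in any of the 3 CKIα comparisons. Their mean was highest of the 12 arrays on CKIα Het/p21 KO replicate 2 (7.29, against 6.11 on replicate 1). There Acta2 was at 9.66, Myh11 at 7.71 and Des at 6.51, against 5.11, 4.38 and 4.31 on replicate 1. Dcn was also higher on replicate 2, and Col1a1, Col1a2 and Col3a1 were lower. The comparison without p21 uses that replicate 2 array. The part of these lists was not tested either. Lymphocyte markers ranged from 6.54 to 8.90 over the 12 arrays, with 0 of 8 passing limma in any of the 3 CKIα comparisons. At an unadjusted p under 0.05 there were 0, 8 and 0 with both genes present, without p21 and without p53. Over all genes these unadjusted shares were 9.09%, 23.2% and 34.5%. The probe set of Csnk1a1, the CKIα gene, lay between 10.44 and 10.80 on all 12 arrays and was not called in any CKIα comparison. Where it lies relative to the deleted part is not given in the sources used here, so that it does not check the knockout.

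**Figure D4:**
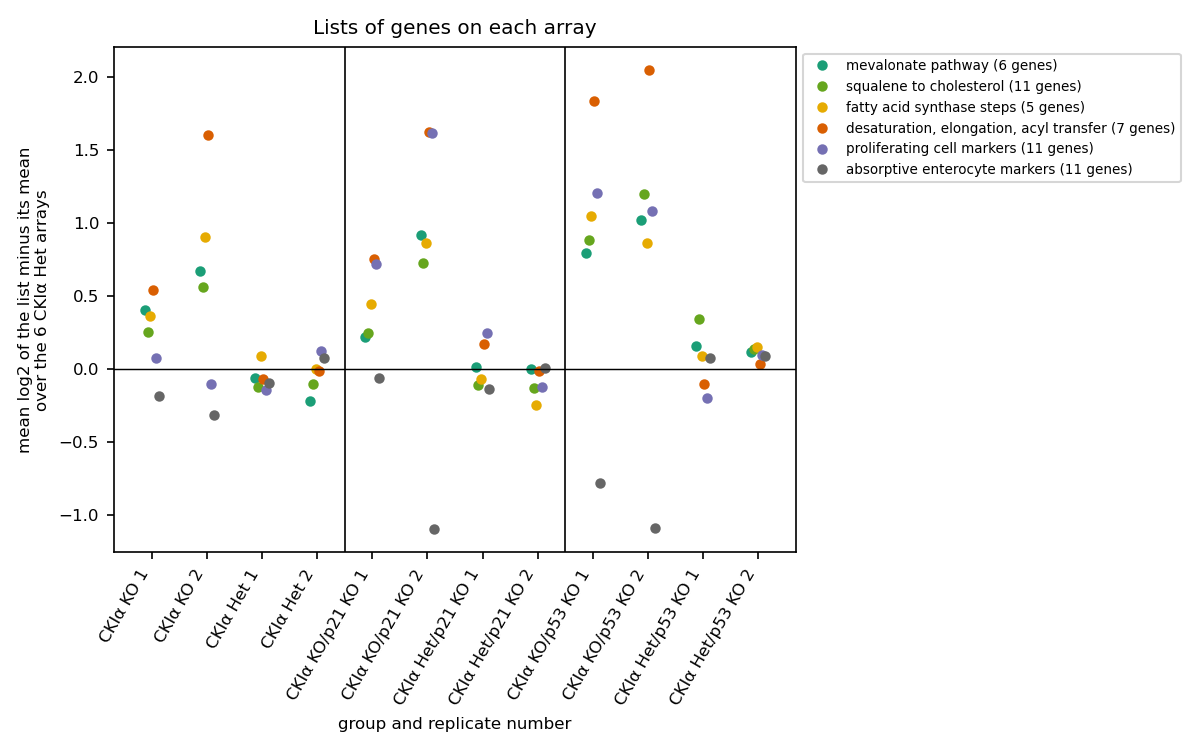
Mean log2 level of 4 groups of members and 2 marker lists on each array, minus the list's mean over the 6 CKIα Het arrays. The 4 member groups lie above 0 on all 6 CKIα KO arrays, while the proliferating cell markers do so clearly only where p21 or p53 is knocked out. The remaining member group, SREBP regulators and sterol carriers, is not drawn. Its mean overlapped without p21, at 8.92 to 8.96 in CKIα KO/p21 KO, against 8.91 to 8.99 in CKIα Het/p21 KO.

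The replicates of the CKIα KO groups differed for these genes. Replicate 2 was above replicate 1 for 27 of 35 members in CKIα KO/p53 KO, 31 in CKIα KO/p21 KO and 29 in CKIα KO, against 20, 19 and 19 in the CKIα Het groups of the same backgrounds. Over all genes the share higher on replicate 2 was 52.7%, 56.4% and 45.0% in the CKIα KO groups. The median difference, replicate 2 minus replicate 1, was 0.24, 0.54 and 0.24 over the members in these CKIα KO groups, and 0.02, 0.01 and 0.01 in the CKIα Het groups. Xist, which is transcribed from the inactive X of females, was between 3.15 and 3.94 on every replicate 1 array and between 8.91 and 10.10 on every replicate 2 array, so that the replicate number and the pattern of Xist cannot be told apart. Within arrays of the same number, the 6 differences between CKIα KO and CKIα Het were all above 0 for 23 of 35 members, where 11.5% of all genes were so, and below 0 in all 6 for Stard4. The median member difference was 0.67 on replicate 1 arrays and 0.92 on replicate 2 arrays without p53, 0.36 and 0.96 without p21, and 0.29 and 0.74 with both genes present.

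By the means of the 6 groups, 27 members were highest in CKIα KO/p53 KO, and for 17 of these CKIα Het was the lowest group. The members that were highest elsewhere were Tm7sf2 and Insig2 in CKIα Het/p53 KO, Ebp and Acss2 in CKIα KO, Scap and Fads2 in CKIα KO/p21 KO, and Srebf1 and Stard4 in CKIα Het/p21 KO. The span between the highest and the lowest group mean was widest for Mboat1 (4.59), Scd1 (3.69, against a group below the array medians) and Scd2 (2.55) and narrowest for Ebp (0.46) on the log2 scale. Idi1, Fdft1, Acaca and Me1 had a second probe set, which differed in the same direction as the first in each background. Its log2 difference without p53 was 0.82 for Idi1, 1.31 for Fdft1, 0.95 for Acaca and 0.69 for Me1. By gene number the 35 members lie on 15 chromosomes, and Fads1 and Fads2 are the only neighbouring ones.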

How the data were processed

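Per the labels' protocols, RNA was extracted with Trizol and hybridized to Affymetrix arrays, and the authors used the RMA Sketch method of Affymetrix Expression Console 1.1, followed by a normalization to median intensities. The deposited values of 35556 probe sets on 13 arrays were read as log2 intensities. The base is not stated and was taken from their range, with array medians of 4.96 to 5.12. For arrays, their number limits the precision.

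Of the probe sets, 21789 carried 1 symbol, for 19938 genes. Of these, 16721 were tested, those above an array's 25th percentile on at least 2 of 12 arrays. The 12 arrays were fitted with limma 3.58.1 (R 4.3.3), 1 coefficient per group and 6 residual degrees of freedom. P-values were two-sided and adjusted by Benjamini and Hochberg within each of 11 comparisons. The code was tested on simulated data.

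Every member is named. Of the other lists, up to 4 called genes with the smallest p are named, and for cell types also some markers that were not called. Members and lists were chosen with earlier results of these data known. Alternative fits dropped the filter on dim genes, added a quantile normalization or an intensity trend, took the replicate number as a block, weighted the arrays, averaged a gene's probe sets, or left out each array. Sequences are from RefSeq.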

Additional observations from a re-analysis of the deposited data

Results flagged for a closer look

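The array with conflicting labels entered no comparison, and its values are given alone. On it 24 of 35 members lay above all 6 CKIα Het arrays, where 21.5% of all genes did, and 2 lay below all of them (20.8% of all genes). For 11 members its value lay within the range of the CKIα KO/p53 KO arrays, for 21 below both and for 3 above both. The 5 members below are given because the array exceeded the CKIα Het arrays by a wide margin. Mboat1 was at 9.58 on the log2 scale, against 5.53 to 7.01 on the CKIα Het arrays of all backgrounds. Scd2 was at 10.11, against 7.93 to 8.35. Scd1 was at 7.19, against 4.26 to 5.16. Fasn was at 8.75, against 7.005 to 7.600. Fads1 was at 7.72, against 6.12 to 6.51. Dhcr7 was at 7.96 on this array, where the 4 arrays with p53 knocked out were at 8.78 to 8.97 and the other 8 at 7.71 to 8.38. Of known p53 targets, Ccng1 was at 11.22 on this array, against 8.91 and 9.06 in CKIα KO/p53 KO and 10.63 and 11.44 in CKIα KO. Eda2r was at 6.07, against 3.21 and 3.25 in CKIα KO/p53 KO and 4.87 and 6.11 in CKIα KO. Zmat3 was at 7.12, against 5.76 and 5.87 in CKIα KO/p53 KO and 6.51 and 7.21 in CKIα KO. All 3 lay above both CKIα KO/p53 KO arrays and within the range of the CKIα KO arrays, but a group is taken from labels, not from values, so that the array was left out.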

How the results depend on the processing

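Of 54 single-gene calls among the members, 0 reversed under any of the 18 alternatives. Under the 6 that kept all arrays, 309 of 324 repeats kept the call and 15 lost it. With each array left out, 488 of 648 kept it and 160 lost it. With an array left out, the count of members called ranged from 0 to 23 for CKIα without p53, 0 to 20 without p21, 0 to 5 with both genes present and 22 to 28 for the mean effect. It ranged from 0 to 4 for p53 loss in CKIα KO, 0 to 1 for p21 loss in CKIα KO, 0 to 2 for CKIα KO/p53 KO against CKIα KO/p21 KO, and 0 to 1 and 0 to 0 for the differences of the CKIα effect without p53 and without p21. It stayed at 0 for p53 loss and p21 loss in CKIα Het. Leaving out 1 of 2 arrays of a group leaves a lone sample, whose spread is assumed to be that of the other groups. Without p21 the count was 0 without the filter, 1 after quantile normalization and 1 with array weights, instead of 2. With array weights it was 1 with both genes present, instead of 0, and 1 for p53 loss in CKIα KO, instead of 2. With the replicate number as a block, CKIα KO/p53 KO against CKIα KO/p21 KO gave 2 members instead of 1, and it moved no other count of members by more than 1.5 times. Over all genes the block gave 338 calls for p53 loss in CKIα KO, against 116, and 2 with both genes present, against 4. The labels do not say that a number marks a shared factor. Over 15 pairs of groups the deviations of same-numbered arrays correlated between -0.16 and 0.25, and 5 pairs were above 0.1. The arrays were not treated as paired, although Xist follows the number on all 12 arrays. Outside the fit with the block, the spread behind each p-value therefore includes any difference that goes with the number. The causes of the changes in the counts were not tested. Quantile normalization changed the split of all genes called without p53 to 1407 higher and 1369 lower, against 1841 and 1140, and in the mean effect to 2056 and 1914, against 2585 and 1499. It called 19 members without p53, 18 of the 23 and also Stard4 as lower (-0.63), and 24 of the 26 in the mean effect, and it changed the sign of no called member. Over all genes, no filter on dim genes gave 163 calls without p21, against 330. Array weights gave 119 there, 25 for p53 loss in CKIα KO, against 116, and 35 for CKIα KO/p53 KO against CKIα KO/p21 KO, against 55. All other moves of the count over all genes by more than 1.5 times under these 6 alternatives were between counts of 1 to 11.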
